A study of Mus musculus with 27 samples.

Results

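The 10 genes described here are used as markers of Kupffer cells, the resident macrophages of the hepatic sinusoids, or of macrophages in general. They are Clec4f, Vsig4, Timd4, Adgre1, Cd5l, C1qa, C1qb, C1qc, Marco and Csf1r, and they were taken by symbol from a table of 21823 protein-coding genes. Each symbol was found once, and all 10 passed the filter on low values (at least 1 FPKM in at least 3 libraries), which left 12952 genes for the tests. FPKM is the number of fragments scaled to transcript length and to sequencing depth.

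RNA was sequenced from lobular zones cut out of liver sections of female wild-type C57BL/6 mice with a laser microscope. Zone 1 lies around the portal vein, zone 3 around the central vein, and zone 2 in the parenchyma between them. The stages were non-pregnant (NP) and days 8 and 16 post coitum (dpc8 and dpc16), with no treatment or other allele in the labels. Per the study's methods they were C57BL/6N mice, and virgin females of 8 to 14 weeks were used throughout. Its reporting summary gives a wider range of ages, up to 12 months. Each of the 9 groups of stage and zone has 3 libraries, 27 in all. The labels do not tie libraries to mice, so several regions may share an animal, and p-values measure the spread between these libraries only. Animals shared within a group would make p-values too small. Zones cut from the same animal would make them too small for stages averaged over zones, and could make them too large between zones.

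Kupffer cells line the sinusoids, where they take up bacteria, aged red cells, lipoproteins and apoptotic cells from portal blood. They are seeded before birth, renew themselves in place and depend on signalling through the receptor of colony-stimulating factor 1, with PU.1 among the factors that hold the macrophage programme. They are known to be more frequent in the periportal and middle lobule than around the central vein. In bulk tissue, fewer cells of a type and less RNA per cell cannot be told apart.

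Low FPKM values of single-transcript genes lay on whole multiples of 1 read (within 0.1 of a read) for 93.2% to 97.9% of values per library, which gave depths of 7.41 to 32.8 M reads (M for mega) as an estimate from the values. Although all mice are labelled female, 4 Y-linked genes summed to 7.92 to 23.2 FPKM in 6 libraries (in NP, replicate 1 of zone 1 and replicate 2 of zone 3; at dpc8, replicate 1 of zone 1 and replicate 2 of zone 2; at dpc16, replicate 3 of zones 2 and 3) and to at most 2.97 FPKM in the other 21. The 8 genes of connective tissue and smooth muscle summed to 864 to 4593 FPKM in these 6 libraries and to 13.6 to 538 FPKM in the others. The 10 Kupffer cell genes summed to 53.0 to 282 FPKM in the 6 (median 176) and to 101 to 610 FPKM in the others (median 273). The part of this difference in the results was not tested, and the members' medians and counts of calls are also given without these libraries. Defining genes of the lobule were at their labelled places: the periportal gene Cyp2f2 was higher in zone 1 than in zone 3 by 7.40 on the log2 scale, and the pericentral gene Glul was lower by 5.32 (limma adjusted p 7.39e-14 and 5.45e-13).

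Zone 2 had the highest group mean for every member: NP zone 2 for 8 of them and dpc8 zone 2 for Adgre1 and Marco. dpc16 zone 3 had the lowest mean for all 10. The ratio of the highest to the lowest group mean ran from 3.64 for C1qb to 8.44 for Clec4f. Without the 6 libraries with Y-linked FPKM, Marco was lowest in NP zone 3 (0.954 FPKM, against 1.78 in dpc16 zone 3). The highest mean then lay in dpc16 zone 2 for Marco and in dpc8 zone 2 for C1qc (66.46 FPKM, against 66.4 in NP zone 2). Within a group, the libraries often differed as much as neighbouring groups did, as the plot of FPKM by library shows.

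**Figure D1:**
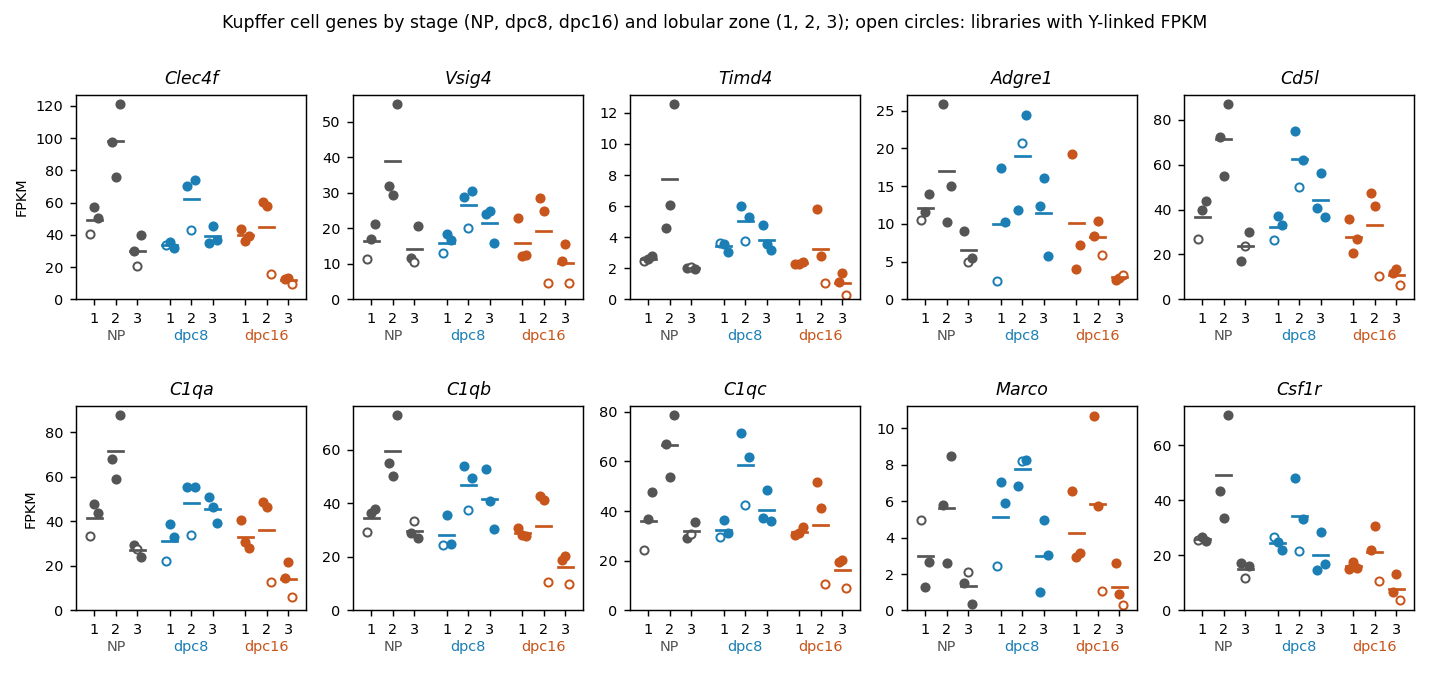
FPKM of the 10 Kupffer cell genes (vertical axes, linear from 0) in 27 libraries by stage and zone (horizontal axes, zones 1 to 3 within NP, dpc8 and dpc16), with each point a library, each bar a group mean of 3 libraries, and open circles the 6 libraries with Y-linked FPKM. With all 27 libraries, the highest group mean of each gene is in zone 2 and the lowest in dpc16 zone 3. Within dpc16, Adgre1 has a higher mean in zone 1 (10.2 FPKM) than in zone 2 (8.21 FPKM). The dpc16 zone 2 group holds 1 low library, at 15.5 FPKM of Clec4f against 57.7 and 60.6 FPKM in the others.

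Clec4f (ENSMUSG00000014542.3, chr6:83644542-83656187, GRCm38) encodes a C-type lectin that in mice is a defining surface receptor of Kupffer cells. In NP mice its FPKM was 40.6, 57.2 and 50.3 in zone 1, 97.5, 75.7 and 121 in zone 2, and 30.1, 20.8 and 39.6 in zone 3. At dpc8 it was 33.9, 35.5 and 32.1 in zone 1, 70.5, 43.1 and 73.8 in zone 2, and 34.6, 45.8 and 36.8 in zone 3. At dpc16 it was 43.4, 36.4 and 39.0 in zone 1, 60.6, 57.7 and 15.5 in zone 2, and 12.3, 12.9 and 9.70 in zone 3. The order of the means was NP zone 2, dpc8 zone 2, NP zone 1, dpc16 zone 2, dpc16 zone 1, dpc8 zone 3, dpc8 zone 1, NP zone 3 and dpc16 zone 3. The first of these did not overlap the second, nor the last the one before it, whereas dpc16 zone 2 overlapped all 6 groups from dpc8 zone 2 to NP zone 3.

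Csf1r (ENSMUSG00000024621.16, chr18:61100598-61132149) encodes the receptor for colony-stimulating factor 1 and interleukin 34, on which macrophage survival depends. Its FPKM in NP mice was 25.4, 26.8 and 25.1 in zone 1, 43.2, 33.5 and 70.8 in zone 2, and 17.1, 11.7 and 16 in zone 3. At dpc16 it was 15.2, 17.5 and 15.4 in zone 1, 22.1, 30.8 and 10.5 in zone 2, and 6.75, 13.1 and 3.80 in zone 3. In each zone the dpc16 mean lay below the NP mean, without overlap in zones 1 and 2 and with overlap in zone 3. The dpc8 libraries held 21.9 to 26.5 FPKM in zone 1, 21.6 to 48.0 in zone 2 and 14.7 to 28.6 in zone 3.

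Cd5l (ENSMUSG00000015854.7, chr3:87357881-87371073) encodes a secreted scavenger receptor protein of tissue macrophages. Its FPKM in NP mice was 26.9, 39.8 and 43.8 in zone 1, 72.4, 54.8 and 87.2 in zone 2, and 17.3, 23.6 and 29.9 in zone 3. At dpc8 it was 26.5, 37.1 and 33.1 in zone 1, 75.3, 50.3 and 62.2 in zone 2, and 40.8, 56.3 and 36.5 in zone 3. At dpc16 it was 35.9, 20.5 and 26.8 in zone 1, 47.4, 41.6 and 10.2 in zone 2, and 11.9, 13.4 and 6.45 in zone 3. The dpc8 zone 3 libraries all lay above the NP zone 3 libraries, and the dpc16 zone 3 libraries all lay below them.

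Marco (ENSMUSG00000026390.7, chr1:120474538-120505024), a scavenger receptor that binds bacteria and particles, and Timd4 (ENSMUSG00000055546.6, chr11:46810800-46844332), a receptor for phosphatidylserine on apoptotic cells that marks embryo-derived Kupffer cells, were the members with the lowest levels. Marco was at 2.98 ± 1.85 FPKM in NP zone 1, 5.63 ± 2.92 in NP zone 2 and 1.34 ± 0.89 in NP zone 3 (SD, n = 3 here and for every group mean). It was at 7.77 ± 0.82 FPKM in dpc8 zone 2 and 5.83 ± 4.83 in dpc16 zone 2, where the libraries held 10.7, 5.74 and 1.04 FPKM. Timd4 was at 7.73 ± 4.24 FPKM in NP zone 2, with libraries at 4.56, 6.08 and 12.6 FPKM, and at 1.01 ± 0.71 in dpc16 zone 3. Its lowest library, dpc16 zone 3 replicate 3 at 0.267 FPKM, rested on an estimated 12 reads, and its highest, NP zone 2 replicate 3, on an estimated 309.

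Vsig4 (ENSMUSG00000044206.3, chrX:96247203-96293438), the complement receptor through which Kupffer cells capture opsonised bacteria, was at 16.5 ± 4.86, 38.9 ± 14.1 and 14.2 ± 5.54 FPKM in NP zones 1, 2 and 3, and at 15.9 ± 6.19, 19.3 ± 12.9 and 10.3 ± 5.5 FPKM in the same zones at dpc16. Adgre1 (ENSMUSG00000004730.15, chr17:57358691-57483527), which encodes the F4/80 antigen of mouse macrophages, was at 12.0 ± 1.70, 17.0 ± 8.08 and 6.5 ± 2.19 FPKM in NP zones 1, 2 and 3, and at 10.2 ± 8.0, 8.21 ± 2.21 and 2.91 ± 0.31 FPKM at dpc16. These groups overlapped more than those of Clec4f did, and the Adgre1 libraries of dpc16 zone 1 alone ran from 4.06 to 19.2 FPKM.

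C1qa (ENSMUSG00000036887.5, chr4:136895917-136898803), C1qc (ENSMUSG00000036896.5, chr4:136889804-136893065) and C1qb (ENSMUSG00000036905.8, chr4:136880129-136886187) encode the 3 chains of C1q, which starts the classical complement pathway and which macrophages make. The genes are neighbours on the minus strand. The RefSeq promoters (GRCm38.p6, 250 bases before to 50 after the start, minus strand for all 3) of C1qb (chr4:136886151-136886450), C1qc (chr4:136892865-136893164) and Clec4f (chr6:83656067-83656366) are shown because C1qb and C1qc moved together and Clec4f had the widest range of group means. Capitals mark GAGGAA or its reverse complement, the core letters bound by PU.1:
C1qb: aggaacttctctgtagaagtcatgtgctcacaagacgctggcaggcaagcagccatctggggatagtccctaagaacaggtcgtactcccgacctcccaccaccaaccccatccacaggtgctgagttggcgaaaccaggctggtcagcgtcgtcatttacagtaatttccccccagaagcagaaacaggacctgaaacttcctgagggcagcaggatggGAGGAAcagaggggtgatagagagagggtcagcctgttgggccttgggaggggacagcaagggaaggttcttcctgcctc
C1qc: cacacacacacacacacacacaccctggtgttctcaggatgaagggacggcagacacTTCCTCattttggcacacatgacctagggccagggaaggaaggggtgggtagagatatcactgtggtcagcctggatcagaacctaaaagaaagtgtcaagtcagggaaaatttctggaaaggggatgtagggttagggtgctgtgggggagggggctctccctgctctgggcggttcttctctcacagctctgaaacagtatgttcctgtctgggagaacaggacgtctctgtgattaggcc
Clec4f: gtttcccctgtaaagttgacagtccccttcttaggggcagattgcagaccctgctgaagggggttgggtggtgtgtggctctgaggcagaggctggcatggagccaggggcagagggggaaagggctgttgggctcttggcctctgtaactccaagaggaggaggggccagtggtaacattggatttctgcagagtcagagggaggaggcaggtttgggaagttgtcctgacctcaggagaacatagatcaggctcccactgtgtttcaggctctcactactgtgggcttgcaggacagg

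Promoters of 7 of the 10 members were searched, not those of Adgre1, C1qa and Csf1r. Chromosome 18, which holds Csf1r, was left out of the search of members. The letters GAGGAA on either strand were in 5 of them (Marco, Cd5l, C1qb, C1qc and Vsig4), against 28.3% of all 32851 promoters, and the longer GAGGAAGT, which contains it, was in C1qc only, against 3.2% of all promoters. The ETS-IRF composite element was in Timd4 only, against 2.72%. The match of GAGGAA nearest to a start was in C1qb, at position -30, and that of C1qc lay at position -193. These are matches of letters in 1 window, not sites of binding.

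C1qa was at 33.2, 47.9 and 43.9 FPKM in NP zone 1, at 67.9, 59.1 and 87.7 in NP zone 2, and at 29.3, 27.5 and 24.2 in NP zone 3. At dpc16 it was at 40.6, 30.8 and 28.1 FPKM in zone 1, 48.6, 46.6 and 12.9 in zone 2, and 14.5, 21.7 and 5.96 in zone 3. C1qb and C1qc followed C1qa from library to library. Over the 27 libraries the ratio of C1qb to C1qa FPKM was 0.96 ± 0.19 (SD), that of C1qc to C1qa 1.04 ± 0.22, and that of C1qc to C1qb 1.09 ± 0.15. The stage medians of the first ratio were 0.857, 0.915 and 0.917 for NP, dpc8 and dpc16, each well inside the range of 0.748 to 1.64 over libraries. The upper end of both ratios to C1qa came from dpc16 zone 3 replicate 3, which has 5.96 FPKM of C1qa.

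**Figure D2:**
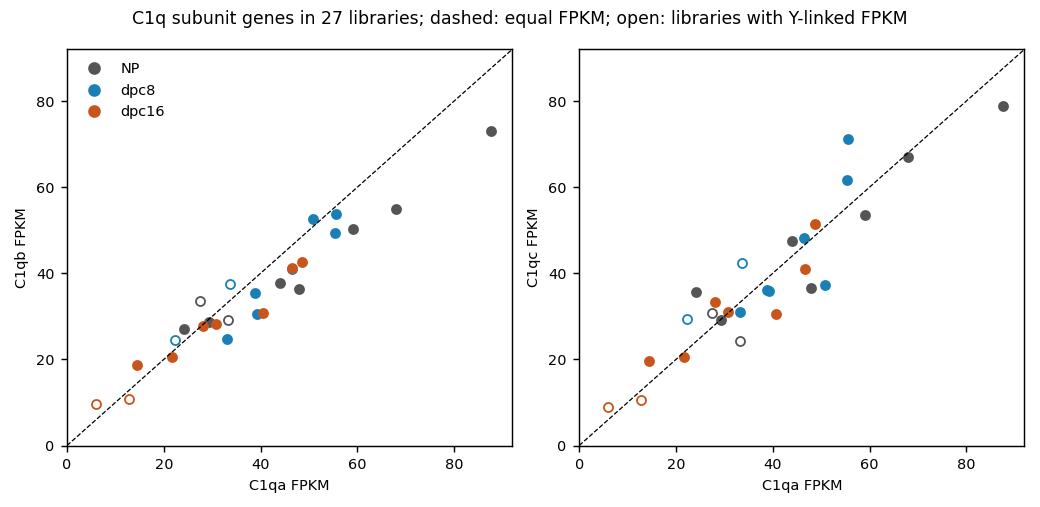
FPKM of C1qb (left) and C1qc (right) against C1qa in the 27 libraries, with colours for stage, open circles for the 6 libraries with Y-linked FPKM, and a dashed line at equal FPKM. The points lie along the line from 5.96 to 87.7 FPKM of C1qa, with mean ratios of 0.96 and 1.04.

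Marco did not keep to a fixed proportion of Clec4f in this way. The ratio of their FPKM ran from 0.00946 to 0.213 over libraries, with medians of 0.0533 in NP, 0.109 at dpc8 and 0.0814 at dpc16. The ranges of the stages overlapped.

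The first comparison asked how the genes differed between lobular zones. All tests used limma on log2(FPKM + 1) with all 27 libraries in a fit of 1 mean per group, two-sided, with Benjamini-Hochberg adjustment over 12952 genes and a threshold of 0.05, and fold changes on this scale understate the change of low genes. All 10 members were higher in zone 2 than in zone 3 as a mean over the stages, with a median log2 fold change of 0.98 against 0.03 over all genes, and 5 of the 10 passed the test, against 0.811% of all genes called higher. Clec4f was higher by 1.32 ± 0.20 on the log2 scale (SE; limma adjusted p 0.000384), Csf1r by 1.22 ± 0.22 (0.00193), Cd5l by 1.14 ± 0.23 (0.0069), Timd4 by 0.90 ± 0.21 (0.0186) and Marco by 1.37 ± 0.33 (0.0281). The other five had log2 fold changes of 0.64 (C1qb) to 1.05 (Adgre1) and adjusted p of 0.0531 (C1qa) to 0.253 (Vsig4). Without the 6 libraries with Y-linked FPKM, 9 of the 10 passed, all but Adgre1, with a median of 1.03, and without dpc16 zone 2 replicate 3 alone 9 passed as well. Here and below, counts from alternative fits are given without a share of all genes, except where stated. The shares printed beside the main counts do not apply to them. Marco lost its call in 10 of the 18 fits that left out 1 library (in NP, replicates 1 and 3 of zone 2 and 3 of zone 3; at dpc8, 2 and 3 of zone 2 and 1 of zone 3; at dpc16, 1 and 2 of zone 2 and 2 and 3 of zone 3), with limma adjusted p of 0.0524 to 0.0758 in these fits. The calls of Marco and Timd4 were also lost with quantile normalization (limma adjusted p 0.0803 and 0.156) and when the fit held only the libraries compared (0.0608 and 0.0818).

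Within stages, comparisons that were added after the values were seen, the difference between zones 2 and 3 was called for 1 member in NP mice (Clec4f, 1.69 ± 0.35, limma adjusted p 0.028, against 0.224% of genes called higher) and for 1 at dpc16 (Clec4f, 1.64 ± 0.35, 0.0313, against 0.201%). In NP mice every zone 2 library lay above every zone 3 library for all 10 members, which held for 6.17% of all genes. At dpc16 this held for Clec4f and Adgre1 only, and for 3.4% of all genes. At dpc8 no member was called (0.347% of genes were called in either direction, and 1 member, Marco, had an unadjusted p under 0.05), with log2 fold changes of 0.05 (C1qa) to 1.26 (Marco) and a median of 0.49, or 0.64 and again no call without the 6 libraries with Y-linked FPKM. The NP call of Clec4f was lost without NP zone 2 replicate 1 or 3 or NP zone 3 replicate 1 or 2 (limma adjusted p 0.0847, 0.228, 0.106 and 0.17), and without the 6 libraries with Y-linked FPKM 6 members were called. The dpc16 call was lost without zone 2 replicate 1 or 2 or any zone 3 library (limma adjusted p 0.101 to 0.292), whereas without zone 2 replicate 3, 6 members were called, and without the 6 libraries with Y-linked FPKM 4 were. Both calls were lost when the fit held only the libraries compared (limma adjusted p 0.12 and 1).

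As a mean over stages zone 1 lay between the other zones, but at dpc8 most members were lowest there and at dpc16 its levels were near those of zone 2. All 10 members were lower in zone 1 than in zone 2 as a mean over stages, with a median log2 fold change of -0.51. None passed the limma test (0.919% of genes were called in either direction), and 7 had an unadjusted p under 0.05. Without the 6 libraries with Y-linked FPKM the median was -0.73 and 6 members were called lower (Clec4f, Vsig4, Cd5l, C1qa, C1qb and C1qc), and without dpc16 zone 2 replicate 3 alone 4 were. In NP mice all zone 1 libraries lay below all zone 2 libraries for 8 members, not for Adgre1 and Marco, and for 5.17% of all genes, with no member called (0.154% of genes were, and 7 members had an unadjusted p under 0.05). The same comparison called no member at dpc8 (0.124% of genes, 3 members with an unadjusted p under 0.05) or at dpc16 (0.139%, 0 members). The median log2 fold changes were -0.87 in NP, -0.70 at dpc8 and 0.03 at dpc16. Without the libraries with Y-linked FPKM they were -0.78, -0.74 and -0.60, with no member called, so the direction at dpc16 turned (Clec4f from 0.05 to -0.57).

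Against zone 3, zone 1 was higher for all 10 members as a mean over stages, with a median of 0.48, and 1 member passed, Clec4f at 0.74 ± 0.20 (limma adjusted p 0.0338, with 2.7% of genes called higher). Csf1r was at 0.72 ± 0.22 (0.0575). The Clec4f call was kept in 6 of 18 fits with 1 library left out and lost in the other 12, which left out in NP replicate 2 or 3 of zone 1 or replicate 1 or 2 of zone 3, at dpc8 replicate 1 or 2 of zone 1 or replicate 1 or 3 of zone 3, and at dpc16 replicate 1 or 3 of either zone (limma adjusted p 0.0518 to 0.0743), and 2 members were called without dpc8 zone 3 replicate 2 or dpc16 zone 3 replicate 2. In NP mice the median was 0.61 with no member called (1.34% of genes, and 0 members with an unadjusted p under 0.05). At dpc8 the median was -0.34, 8 of 10 members were lower in zone 1, and none was called (1.61% of genes, again 0 members with an unadjusted p under 0.05). Without the libraries with Y-linked FPKM the medians were 0.48 over stages with 1 call, and 0.62 in NP and -0.22 at dpc8 with none, and Adgre1 at dpc8 turned from -0.37 to 0.32 (limma adjusted p 0.895).

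At dpc16 the difference between zones 1 and 3 had a median of 1.17 and 9 of 10 members, all but Vsig4, had every zone 1 library above every zone 3 library, as did 8.36% of all genes, while 1 member, Clec4f, was called (1.69 ± 0.35, limma adjusted p 0.00935, against 0.78% of genes called higher). Same-numbered libraries of different zones deviated together at dpc16, and a fit blocked by replicate called 3 members, Clec4f (limma adjusted p 0.00614), Cd5l (0.0413) and C1qa (0.0318). The Clec4f call was lost without dpc16 zone 1 replicate 1 (limma adjusted p 0.0523) and without dpc16 zone 3 replicate 3 (0.055). Without the libraries with Y-linked FPKM the median was 0.78 and 3 members were called.

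The second comparison asked how the genes differed between the stages of pregnancy. At dpc16, 9 of the 10 members had a lower mean over zones than in NP mice and 7 were called, against 6.15% of all genes called lower, and the median log2 fold change was -0.76 against -0.01 over all genes. Clec4f was at -0.96 ± 0.20 (SE; limma adjusted p 0.00301), Csf1r at -0.95 ± 0.22 (0.0055) and Cd5l at -0.94 ± 0.23 (0.0088). C1qa was at -0.85 ± 0.23 (limma adjusted p 0.0197), C1qb at -0.74 ± 0.21 (0.0224), C1qc at -0.77 ± 0.23 (0.0301) and Timd4 at -0.63 ± 0.21 (0.0495). Adgre1 (-0.76, limma adjusted p 0.111) and Vsig4 (-0.61, 0.186) did not pass, and Marco was at 0.06 with a 95% interval of -0.63 to 0.74.

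With the replicate number of a stage as a random block, 3 of these calls were kept, Clec4f (limma adjusted p 0.0171), Csf1r (0.0239) and Cd5l (0.0343), and the other four had adjusted p of 0.061 to 0.139. Without the 6 libraries with Y-linked FPKM 6 members were called, the same genes without Timd4, and the median was -0.52. Timd4 kept its call in 3 of 18 fits with 1 library left out, those without NP zone 2 replicate 1, dpc16 zone 2 replicate 1 or dpc16 zone 3 replicate 2, and the largest limma adjusted p, 0.106, came without NP zone 2 replicate 3. C1qc lost its call without replicate 2 or 3 of zone 1, or replicate 3 of zone 2 or 3, in NP, and without replicate 1 or 2 of zone 1 or replicate 3 of zone 3 at dpc16 (limma adjusted p 0.0528 to 0.0677). Albumin (Alb), the main secreted hepatocyte protein, was higher at dpc16 by 1.54 ± 0.28 (limma adjusted p 0.000698), and its share of the FPKM sum ran from 3.71% to 21% over libraries. With every library scaled to the same FPKM sum, which moved the median of all genes to -0.31, the median of the members was -1.16 and 9 were called lower, against 21.8% of the 13563 genes tested on that scale. The part of the albumin share in these changes was not tested.

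By zone, the log2 fold changes of dpc16 against NP had medians of -0.27 in zone 1, -1.17 in zone 2 and -0.94 in zone 3. In zone 1 no member was called (1.37% of genes were, and 0 members had an unadjusted p under 0.05). In zone 2, 1 member was called, Clec4f at -1.32 ± 0.35 (limma adjusted p 0.0473, against 1.64% of genes called lower), and 7 members had every dpc16 library below every NP library, as did 9.59% of all genes. In zone 3 no member was called (1.32% of genes, 6 members with an unadjusted p under 0.05), and the dpc16 libraries of 7 members lay below all NP libraries, as did those of 8.87% of all genes.

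Of the fits that left out 1 library, the zone 2 value of Clec4f moved most without dpc16 zone 2 replicate 3, which holds Y-linked FPKM, to -0.70 (limma adjusted p 0.214). With array weights, which give libraries unequal weight, it was at -0.65 (0.0814). The Clec4f call was also lost without NP zone 2 replicate 1, 2 or 3 (limma adjusted p 0.104, 0.058 and 0.18), whereas 4 members were called without dpc16 zone 2 replicate 1. Without all 6 libraries with Y-linked FPKM the medians were -0.41, -0.60 and -0.61 in zones 1, 2 and 3, and 0, 0 and 1 members were called. The difference between zones 1 and 3 in the dpc16 change had a median of 0.59 and no member passed (0.054% of genes did, and 0 members had an unadjusted p under 0.05), and without the libraries with Y-linked FPKM it was 0.19 and again none passed.

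All 10 members had a lower mean at dpc16 than at dpc8, with a median log2 fold change of -0.77, and the same 7 genes were called, against 5.69% of all genes called lower, and the comparison shares its dpc16 libraries with the one against NP. Cd5l was at -1.12 ± 0.23 (limma adjusted p 0.00255), Csf1r at -0.87 ± 0.22 (0.0109), Timd4 at -0.80 ± 0.21 (0.0134) and Clec4f at -0.70 ± 0.20 (0.0284). C1qa, C1qb and C1qc were at -0.76, -0.68 and -0.78 (limma adjusted p 0.039, 0.0384 and 0.0302). Adgre1 (-0.86, limma adjusted p 0.0668), Vsig4 (-0.64, 0.164) and Marco (-0.56, 0.323) did not pass. In zone 3 the dpc16 libraries lay below all dpc8 libraries for 9 members, not for Marco, and for 12.2% of all genes, and this difference was not tested by zone. With the replicate number as a random block 2 calls were kept, Cd5l (limma adjusted p 0.0122) and Csf1r (0.0435), and without the 6 libraries with Y-linked FPKM 8 members were called, with a median of -0.54.

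This count fell from 7 to 3 without any 1 of 6 libraries: at dpc8, replicate 2 of zone 1, 1 or 3 of zone 2, or 2 of zone 3, and at dpc16, replicate 2 of zone 1 or 3 of zone 3. Each of these took away the calls of Clec4f (limma adjusted p 0.0502 to 0.0625) and of C1qa, C1qb and C1qc (0.0506 to 0.0831 over all fits in which they were lost). C1qa and C1qb were also lost without replicate 3 of zone 1 or 1 of zone 3 at dpc8, or replicate 3 of zone 1 at dpc16. C1qa was lost without replicate 3 of dpc16 zone 2, and C1qb and C1qc without replicate 1 of dpc16 zone 1. Cd5l, Csf1r and Timd4 kept their calls in all 18 fits.

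At dpc8 no member differed from NP by the limma test as a mean over zones (0.108% of genes were called, and 0 members had an unadjusted p under 0.05), with log2 fold changes of -0.26 (Clec4f) to 0.62 (Marco). The 95% interval for Clec4f was -0.68 to 0.16 and that for Cd5l -0.30 to 0.66, so changes of about the size seen at dpc16 lay outside both on the lower side. In zone 1 the median was -0.14 (0.0309% of genes called, 0 members with an unadjusted p under 0.05), and in zone 2 it was -0.39 (0.00772%, 0 members). In zone 3 all 10 members were higher at dpc8, with a median of 0.63, but none was called (0.0154% of genes, 1 member with an unadjusted p under 0.05, Cd5l at 0.90 ± 0.40). The difference between zones 1 and 3 in the dpc8 change had a median of -0.67 and 0% of genes were called, with 306 genes and 0 members at an unadjusted p under 0.05. Without the libraries with Y-linked FPKM no member was called in these 5 comparisons, and the medians were 0.01 over zones (0.02 with them), -0.20, -0.20 and 0.52 in zones 1, 2 and 3, and -0.58 for the difference between zones 1 and 3.

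**Figure D3:**
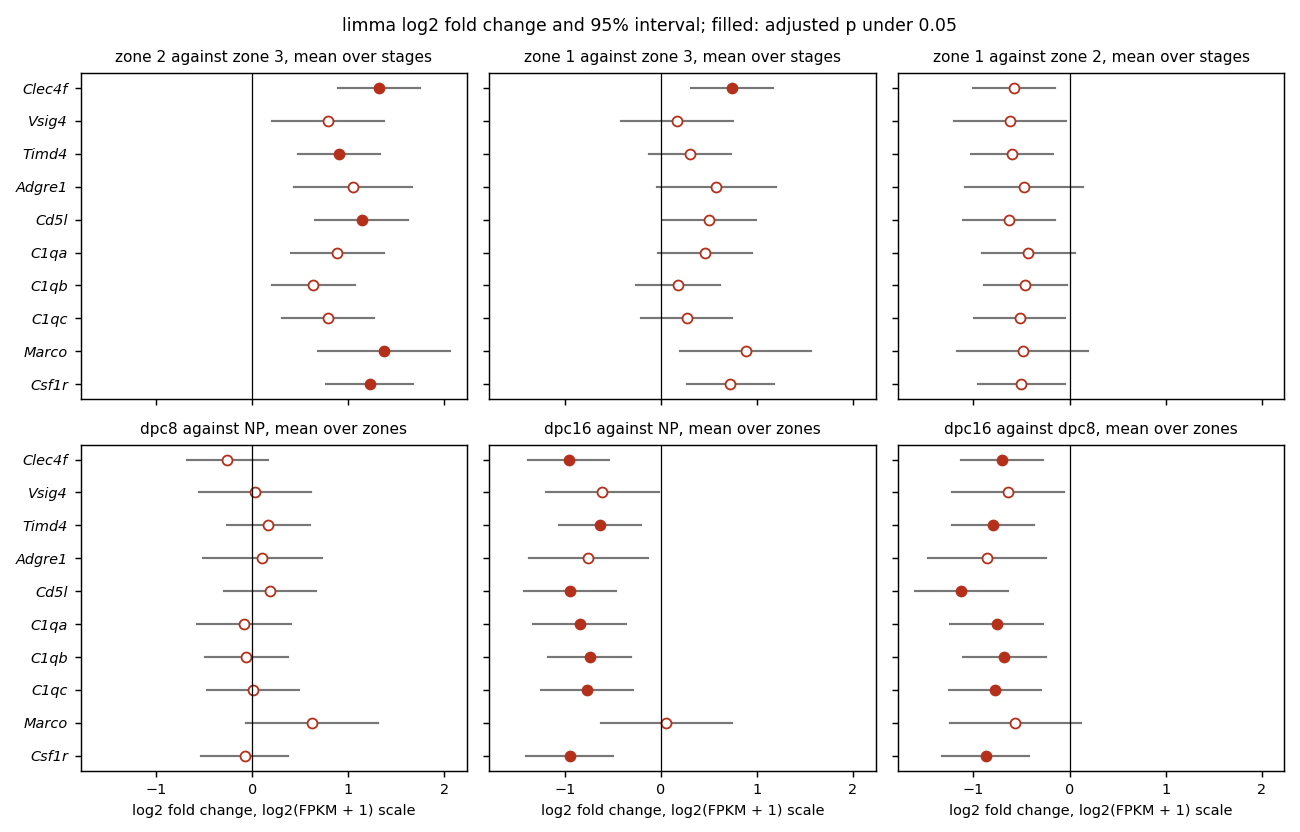
Log2 fold change on the log2(FPKM + 1) scale (horizontal axis) with its 95% interval for each member in 6 comparisons of zones and stages from 1 limma fit of 27 libraries, filled where the adjusted p is under 0.05. All 10 points lie above 0 for zone 2 against zone 3, with 5 filled, and 7 are filled on the lower side in each comparison of dpc16, with Clec4f at -0.96 against NP.

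Other macrophage genes were read from lists fixed for this purpose. Of all genes, 6.15% were called lower and 5.65% higher at dpc16 against NP, 0.811% were called higher in zone 2 against zone 3, and for zone 1 against zone 3 the shares were 2.7% higher and 2.89% lower, with medians of -0.01, 0.03 and 0.04. Of 12 genes of the macrophage core, 3 fell at dpc16 against NP: the lysosomal glycoprotein gene Cd68 (-0.57, limma adjusted p 0.00643), the perforin-like Mpeg1 (-0.67, 0.0088) and the inhibitory receptor gene Sirpa (-0.62, 0.0103), with a list median of -0.59. In zone 2 against zone 3, 3 of the 12 were higher, Cd68 (0.72, limma adjusted p 0.00309), the Fc receptor gene Fcgr3 (1.21, 0.00921) and the lipopolysaccharide co-receptor gene Cd14 (1.27, 0.0339), with a median of 0.65. All 12 had a positive log2 fold change in that comparison. Cd14 was also higher in zone 1 than in zone 3 (1.08, limma adjusted p 0.044). In fits added after the values were seen, the 3 calls at dpc16 were kept with the random replicate block (limma adjusted p 0.0361 to 0.0414). In the 21 libraries with at most 2.97 FPKM of Y-linked genes (the 21 libraries) the medians were -0.44 and 0.78, Cd14 was also called higher at dpc16 (0.92, limma adjusted p 0.0272), and 8 of the 12 were called higher in zone 2, as were 7 with the block. The shares of all genes above are from the main fit without the block, not from these added fits.

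Of 7 transcription factor genes of Kupffer cells, 1 passed the test at dpc16 against NP, Spi1, which encodes PU.1 (-0.82, limma adjusted p 0.0437). Spi1 did not pass with the replicate block (limma adjusted p 0.108) or in the 21 libraries (-0.48, 0.0972). In the zones 1 passed, Spic, a factor of iron-recycling macrophages, higher in zone 2 than in zone 3 (1.01, limma adjusted p 0.00354). The list medians were -0.24 and 0.30, and -0.14 and 0.29 in the 21 libraries. Of 10 genes of scavenging, efferocytosis and iron handling, the folate receptor gene Folr2 (-1.03, limma adjusted p 0.000571) and the efferocytosis receptor gene Mertk (-0.60, 0.018) fell at dpc16. Cd36, a fatty acid transporter that hepatocytes also express, rose by 2.25 (limma adjusted p 0.00025). In zone 2 against zone 3, Folr2 (0.81, limma adjusted p 0.0181) and the scavenger receptor gene Msr1 (1.28, 0.00895) of this list were higher, and Msr1 was higher in zone 1 than in zone 3 as well (1.63, 0.000282). With the replicate block Folr2 (limma adjusted p 0.00376) and Cd36 (0.000642) kept their calls at dpc16 and Mertk did not (0.0779). The list medians were -0.32 at dpc16 and 0.36 for the zones, and -0.02 and 0.54 in the 21 libraries, where the haem oxygenase gene Hmox1 was also called at dpc16 (0.64, limma adjusted p 0.0247).

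Of 6 genes for ligands of the Csf1 receptor and signals from the niche, none was called in zone 2 against zone 3. Dll4, a Notch ligand of endothelium, was higher in zone 1 than in zone 3 (1.13, limma adjusted p 0.000333) and lower at dpc16 than in NP mice (-0.59, 0.0417), whereas Gdf2 (-0.65, 0.0189) and Bmp10 (-0.58, 0.0415), which encode ligands of the same receptor family made by stellate cells, were lower in zone 1. Csf1 and Il34 themselves were not called in these comparisons, and the list medians were 0.13 for zone 2 against zone 3, -0.27 at dpc16 and -0.0048 for zone 1 against zone 3. In the 21 libraries these medians were 0.03, -0.35 and -0.11, and Csf1 was called lower at dpc16 (-1.04, limma adjusted p 0.0245). Of 8 genes for complement proteins around C1q, C1s1, the protease of the C1 complex, fell at dpc16 (-0.69, limma adjusted p 0.0145) and Cfi, the C3b inactivator, rose (0.83, 0.0227), with a list median of 0.11, or 0.34 in the 21 libraries, where C3 (0.54, limma adjusted p 0.00234) and C4b (0.67, 0.000807) were called higher too. With the replicate block the dpc16 calls of Dll4 (limma adjusted p 0.16), C1s1 (0.0638) and Cfi (0.07) were lost, and in the 21 libraries that of Dll4 was lost (0.0837).

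For other cell types, the changes of dpc16 against NP had list medians of 0.16 for monocytes and recruited macrophages (1 of 8 tested fell, the lysozyme gene Lyz2, at -0.79, limma adjusted p 0.00181), -0.21 for sinusoidal endothelium (0 of 6 called), -0.40 for stellate cells (1 of 6 fell, Lrat, at -1.62, 9.95e-06), -0.47 for biliary epithelium (0 of 5) and -0.71 for connective tissue and smooth muscle (0 of 8). In the 21 libraries these medians were -0.12, -0.14, -0.33, -0.77 and -1.20, and Lyz2 and Lrat kept their calls there and with the replicate block. Of 5 hepatocyte genes, Alb, Apoa1 (limma adjusted p 0.00983) and Serpina1a (0.71, 0.0487) rose and the transthyretin gene Ttr fell (-1.49, 7.72e-05), with a median of 0.71, or 0.91 in the 21 libraries, and Serpina1a lost its call with the block (limma adjusted p 0.127). For dendritic cells, neutrophils, B cells and T and NK cells, 2, 4, 1 and 4 genes reached the filter and none was called. Calls at dpc16 that were made in the 21 libraries but not in all 27 were those of the neutrophil gene Retnlg (1.2, limma adjusted p 0.0268, with the neutrophil median at 0.89 against 0.50), the stellate cell gene Colec11 (-0.41, 0.0484), the biliary gene Sox9 (-0.67, 0.019), the collagen gene Col3a1 (-1.30, 0.0365) and the hepatocyte gene Hnf4a (0.59, 0.0139). Between zones, Lyz2 was higher in zone 2 than in zone 3 (0.62, limma adjusted p 0.0422). Zone 1 exceeded zone 3 in the biliary genes Spp1 (4.28, limma adjusted p 0.00285), Sox9 (1.99, 1.77e-06) and Epcam (1.73, 0.000395), and the stellate cell genes Reln (-0.84, 0.015) and Ecm1 (-0.69, 0.0402) were lower there. Of 4 erythroid genes tested, Alas2, which encodes the first enzyme of haem synthesis in red cells, rose (1.08, limma adjusted p 0.00182), whereas the globin genes Hba-a1, Hbb-bs and Hbb-bt were at -0.91, -0.75 and -0.93 (0.228 to 0.361), and the list median was -0.83, or -0.59 in the 21 libraries.

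**Figure D4:**
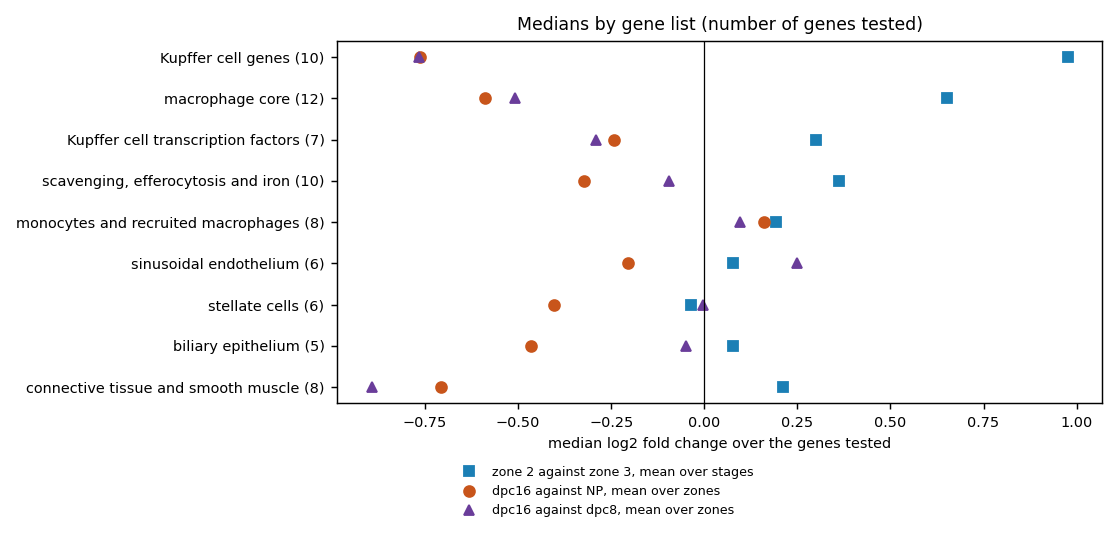
Median log2 fold change (horizontal axis) over the genes tested of 9 lists (rows, number of genes in brackets) in 3 limma comparisons, with squares for zone 2 against zone 3, circles for dpc16 against NP and triangles for dpc16 against dpc8. The Kupffer cell genes lie at 0.98, -0.76 and -0.77, and the macrophage core at 0.65, -0.59 and -0.51.

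The genes whose pattern was most like that of the members were found by Pearson's r with the mean of the members' standardised log2 values over the 27 libraries, among 12942 other genes. They were Adgre4 (r 0.95, Spearman's rho 0.95), an adhesion receptor gene related to Adgre1, the cathepsin gene Ctss (r 0.93), the properdin gene Cfp (0.92), Mpeg1 (0.92) and the adaptor gene Tyrobp (0.92). Libraries share depth and tissue make-up, so these are descriptions only. Without the libraries with Y-linked FPKM the 5 ranked 1, 9, 6, 3 and 15, and on deviations from the group means, which leave out zone and stage, they ranked 52, 5, 29, 186 and 255. On those deviations the 4 leading genes were Ttpa, Pxmp4, Mpp6 and Adtrp, with mean levels of 48.5 to 237 FPKM.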

How the data were processed

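Per the labels, areas of 2 mm2 per zone were cut from 5 µm sections and 50 ng of total RNA was depleted of ribosomal RNA. The authors trimmed the reads (86 bases, single end) with cutadapt, used HISAT2 2.1.0 with mm10, and computed FPKM from unique alignments with Cuffdiff of Cufflinks 2.2.1 over protein-coding genes of GENCODE vM22. The deposited values are FPKM, and Cuffdiff can scale libraries against each other, so depths taken from them are estimates. Gene positions are those of GENCODE vM21 (same build) and promoters from RefSeq.

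Here log2(FPKM + 1) was fitted with limma 3.58.1 in R 4.3.3 (intensity trend, robust), since the table holds no counts, in 17 comparisons and 6 added after the values were seen. The procedure was tested on simulated data. The members and lists were chosen with earlier results of these data known. From each list, up to 4 genes past the threshold were named per comparison, by size of change, for dpc16 against NP and for zones 1 and 2 against zone 3. 1 gene of the transcription factor list and 1 promoter motif are not reported here, and the list's counts and median were computed without that gene. Same-numbered libraries of different zones deviated together at dpc16 (9 of 9 correlations over 0.1, 0.26 to 0.86), and at NP (4 of 9) and dpc8 (5 of 9) they did not meet this rule. Alternatives were another pseudocount (0.1), no filter, quantile normalization, array weights, only the groups compared, a replicate block, a connective tissue covariate, leaving out single libraries or the 6 with Y-linked FPKM and, chosen after seeing the data, equal FPKM sums.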

Additional observations from a re-analysis of the deposited data

Results flagged for a closer look

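Clec4f moved in opposite directions in zones 1 and 3 between dpc8 and dpc16, without overlap of the libraries in either zone: the mean of log2(FPKM + 1) was higher at dpc16 by 0.22 in zone 1 and lower in zone 3 (-1.66), a difference of 1.88 between the changes. C1qa moved in opposite directions in zones 2 and 3 between NP and dpc8, again without overlap, at -0.58 in zone 2 and 0.73 in zone 3, a difference of -1.3. Neither difference was tested. The C1qa changes did not pass the limma test in either zone (limma adjusted p 0.971 and 1), and those of Clec4f between dpc8 and dpc16 were not tested by zone. Both were picked from all pairs of zones and stages over the 10 members. In dpc8 zone 2, C1qa was at 55.6, 33.7 and 55.4 FPKM, with the lowest value in a library with Y-linked FPKM. The Clec4f change in zone 1 was from 33.8 ± 1.70 to 39.6 ± 3.57 FPKM (SD, n = 3). The FPKM sums of the zone 1 libraries were 519848 to 614272 at dpc8 and 876877 to 988500 at dpc16. These sums rose by a larger proportion than Clec4f, so its share of the sum was not higher at dpc16.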

How the results depend on the processing

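No member's call changed direction under any alternative. Among members and medians that were not called, signs did change: the median of zone 1 against zone 2 at dpc16 (0.03) was -0.45 with array weights, -0.13 with the connective tissue covariate, -0.24 with equal FPKM sums, -0.60 on leaving out replicate 3 of dpc16 zone 2 and -0.20 on leaving out replicate 1 of dpc16 zone 1, that of zone 1 against zone 3 at dpc8 (-0.34) was 0.15 with the covariate, and that of dpc8 against NP (0.02) lay between -0.06 and -0.01 without any 1 of 8 libraries. Over 23 comparisons, counts of members called are given below where they moved by more than 1.5 times. For zone 2 against zone 3 over stages (5 called) the count was 3 with quantile normalization, 8 with the random replicate block or equal FPKM sums, 9 with the fixed replicate block or without the 6 libraries that hold Y-linked FPKM (below, the 6 Y-linked libraries), and 10 with array weights or the connective tissue covariate, with 4 to 9 on leaving out single libraries. In NP mice (1 called) it was 0 with only the groups compared, 4 with array weights or either replicate block, 5 with the covariate or equal sums and 6 without the 6 Y-linked libraries, with 0 to 1 on leaving out libraries. At dpc16 (1 called) it was 0 with quantile normalization or only the groups compared, 2 with equal sums, 3 with the covariate, 4 without the 6 Y-linked libraries and 7 with array weights, with 0 to 6 on leaving out libraries.

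For zone 1 against zone 3 over stages (1 called) the count was 2 with array weights, only the groups compared, the random replicate block or equal sums, 3 with the fixed replicate block and 4 with the covariate, with 0 to 2 on leaving out libraries, and at dpc16 (1 called) it was 3 with array weights, either replicate block, the covariate or without the 6 Y-linked libraries, with 0 to 1. For zone 1 against zone 2 over stages (0 called) it was 2 with equal sums, 5 with array weights and 6 without the 6 Y-linked libraries, with 0 to 4.

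For dpc16 against NP over zones (7 called) it was 3 with only the groups compared or the random replicate block, with 5 to 7 on leaving out libraries, and for dpc16 against dpc8 (7 called) 3 and 2, with 3 to 8. For dpc16 against NP in zone 2 (1 called) it was 0 with no filter, array weights, only the groups compared or without the 6 Y-linked libraries, and 8 with the covariate or equal sums, with 0 to 4. In zone 3 (0 called) it was 1 with array weights or without the 6 Y-linked libraries, 4 with the covariate and 6 with equal sums, and in zone 1 (0 called) 3 with equal sums. The cause of these shifts was not tested. With the random block the count fell for dpc16 against NP and against dpc8 over zones. It rose for zone 2 against zone 3 and for zone 1 against zone 3 over stages. As means over stages or zones, Clec4f, Cd5l and Csf1r kept their calls for zone 2 against zone 3 and dpc16 against NP in every alternative run, which the Clec4f calls within 1 stage or zone did not.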
